A study of Mus musculus with 18 samples.

Results

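A set of 6 genes of the Ly6 family was examined in the kidney of male mice: Ly6a, Ly6c1, Ly6c2, Ly6d, Ly6e and Ly6i. They were the 6 rows of the deposited table, which lists 32675 genes, whose gene name is one of these symbols. The set was chosen by the differences in FPKM and counts between the groups of these same kidneys, which were known at the time, so the differences and adjusted p values below describe the genes and are not independent evidence. Right kidneys of 18 wild-type C57BL/6 mice, labelled as 6 weeks old, were sequenced as bulk poly(A) RNA, 6 mice to a group in 3 groups. Ctrl mice were handled daily and were not defeated. PBS mice (labelled StressPbs) went through chronic social defeat stress (CSDS), in which a larger CD-1 male attacked them for 10 min a day over 14 days, and were injected intraperitoneally with phosphate-buffered saline each day. FLX mice (labelled StressFlx) went through the same CSDS and received fluoxetine, a serotonin reuptake inhibitor, at 10 mg/kg in the same volume. Injections are described for the PBS and FLX mice only, so in a comparison with Ctrl the defeat and the injection cannot be told apart.

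The Ly6 proteins are small surface proteins with a fold held together by disulphide bonds, and most are anchored in the membrane by a glycolipid (GPI) tail. Ly6a, also called stem cell antigen, is found on blood progenitors, lymphocytes and endothelium, and Ly6a and Ly6e are known to be raised by interferons. The proteins of Ly6c1 and Ly6c2 each carry the Ly6C antigen used to sort monocytes, and Ly6c1 is also a gene of endothelial cells. Ly6d marks early B lineage cells and stratified epithelia such as the lining of the urinary tract.

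All 6 genes lie on chromosome 15 (GRCm38) and are annotated as protein-coding. Ly6d (ENSMUSG00000034634) spans 74762056 to 74763620 and Ly6e (ENSMUSG00000022587) spans 74955051 to 74959905. Ly6i (ENSMUSG00000022586) spans 74979534 to 74983430 and Ly6a (ENSMUSG00000075602) spans 74994877 to 74998031. Ly6c1 (ENSMUSG00000079018) spans 75044018 to 75048830 and Ly6c2 (ENSMUSG00000022584) spans 75108158 to 75111970. Ly6e is on the plus strand and the other 5 are on the minus strand, and 0 annotated genes overlap any of them.

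The coding sequences of the closest relatives are shown because reads of near copies can be exchanged when they are counted. Those of Ly6a and Ly6i, from GENCODE M21 and without the stop codon, are each 402 bases long. They are identical at 347 positions, or 86.3%, and differ at 55. The first 300 bases of each follow, with the 47 of them that differ in capitals.
Ly6a: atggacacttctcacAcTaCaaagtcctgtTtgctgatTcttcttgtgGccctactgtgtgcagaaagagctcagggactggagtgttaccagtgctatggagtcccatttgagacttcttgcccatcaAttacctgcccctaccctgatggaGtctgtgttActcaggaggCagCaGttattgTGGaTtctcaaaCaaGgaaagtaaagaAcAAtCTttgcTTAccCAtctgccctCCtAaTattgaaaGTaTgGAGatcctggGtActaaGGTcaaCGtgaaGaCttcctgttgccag
Ly6i: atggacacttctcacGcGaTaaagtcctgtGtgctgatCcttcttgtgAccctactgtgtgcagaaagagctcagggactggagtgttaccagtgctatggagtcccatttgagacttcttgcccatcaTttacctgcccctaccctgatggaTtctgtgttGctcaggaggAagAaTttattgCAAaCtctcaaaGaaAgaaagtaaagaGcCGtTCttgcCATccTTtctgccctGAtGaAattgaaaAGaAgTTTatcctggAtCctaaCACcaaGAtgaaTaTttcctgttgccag

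Those of Ly6c1 and Ly6c2 are each 393 bases long, and only 9 bases differ between them (97.7% identity), of which the 7 in the first 300 bases are in capitals.
Ly6c1: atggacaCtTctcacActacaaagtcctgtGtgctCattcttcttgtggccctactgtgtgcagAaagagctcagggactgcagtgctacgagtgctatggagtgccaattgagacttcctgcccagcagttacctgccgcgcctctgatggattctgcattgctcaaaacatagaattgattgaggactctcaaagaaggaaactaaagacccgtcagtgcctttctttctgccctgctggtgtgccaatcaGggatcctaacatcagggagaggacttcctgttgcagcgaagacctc
Ly6c2: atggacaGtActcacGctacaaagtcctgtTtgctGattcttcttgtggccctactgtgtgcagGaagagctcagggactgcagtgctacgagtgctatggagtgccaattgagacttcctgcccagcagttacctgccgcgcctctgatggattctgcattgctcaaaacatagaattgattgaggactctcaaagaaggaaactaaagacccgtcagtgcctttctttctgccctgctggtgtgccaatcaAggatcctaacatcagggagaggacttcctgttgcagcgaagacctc

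Over all annotated transcripts of Ly6a and of Ly6i, 0 windows of 150 bases, the length of a read, occurred in a transcript of another gene. Ly6c1 and Ly6c2 shared 39 such windows, 2.29% of the 1706 windows of Ly6c1 and 1.42% of the 2737 windows of Ly6c2. Reads of these windows can be exchanged. Ly6c1 was far more abundant, at a mean of 38.5 against 0.902 FPKM, so such reads could make up much of the Ly6c2 value. Their share was not tested, and the levels, ratios and differences of Ly6c2 below carry this limit. Ly6a against Ly6c1 and Ly6c2 gave 81.8% and 81.6% identity, while Ly6d and Ly6e were between 46.9% and 53.5% identical to the other members over the columns of their alignments. RefSeq promoters (GRCm38.p6) were at hand for 2 of the 6 genes, Ly6c1 and Ly6c2, and not for Ly6a, Ly6d, Ly6e or Ly6i. On either strand, neither contained the core of the interferon-stimulated response element, which 3.44% of all 32851 promoters of this length hold, or the gamma-activated site (TTCNNNGAA), which 8.30% hold.

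Levels are given in FPKM, sequenced fragments scaled by transcript length and library depth. Ly6a was by far the most abundant member, with a mean of 371 FPKM over the 18 mice, which ranked 103 of 32675 genes. Ly6e followed with 65.3 FPKM (rank 727) and Ly6c1 with 38.5 FPKM (rank 1183). Ly6d had a mean of 3.75 FPKM (rank 7332), Ly6c2 of 0.902 FPKM and Ly6i of 0.503 FPKM. The range of Ly6a, 247 to 460 FPKM, lay above all others. Those of Ly6e, 44.1 to 93.5 FPKM, and Ly6c1, 27.8 to 74.0 FPKM, overlapped, and in PBS replicate 6 Ly6c1 exceeded Ly6e. The ranges of Ly6d, Ly6c2 and Ly6i overlapped one another. Ly6a took between 63.3% and 81.9% of the summed FPKM of the 6 genes in each mouse (median 78.0%), and Ly6c1 exceeded Ly6c2 by 28.6 to 90.8 times (median 43.7).

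The tissue label was borne out by its markers: the summed FPKM of 10 tubule genes, led by Umod and Slc34a1, was between 2205 and 3043 in every mouse. Deposited counts per mouse totalled 72149987 to 79061296 in 14 mice and 48928823 to 52073640 in FLX replicates 3 to 6, so the precision for genes of low counts was lower in those 4 mice. PBS replicate 6 stood apart, with a summed FPKM of 10 neutrophil genes of 66.6 against 7.36 to 26.5 in the other 5 PBS mice. The study deleted 1 PBS mouse without naming it, and it was taken here to be this one. Each difference of the 6 members is therefore given over 17 mice first, with 5 PBS mice, and then over all 18. Differences of other genes are over 17 mice unless all 18 are named. Fewer cells of a type and less RNA per cell cannot be told apart in whole kidneys.

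The first comparison, PBS versus Ctrl, sets defeated and injected mice beside undefeated mice for which no injection is described. Ly6i, Ly6e and Ly6a were lower in the PBS group at an adjusted p under 0.05 in edgeR's quasi-likelihood test, and Ly6c1, Ly6c2 and Ly6d did not pass. The 3 members that passed in this direction stand beside 1.67% of the 20251 genes tested, and since the members were picked with this contrast known, nothing is read from their share. At the study's own threshold, an absolute log2 fold change over 1 with an unadjusted p under 0.05, only Ly6i was lower, against 1.55% of the genes tested. The median log2 fold change was -0.26 over the 6 members and -0.01 over all genes tested. Over all 18 mice Ly6i, Ly6e and Ly6a also passed, against 1.82% of genes. In FPKM, the 5 PBS mice lay below every Ctrl mouse for these 3 members, an arrangement found for 1.75% of the genes tested. Nothing is read from this share either.

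**Figure D1:**
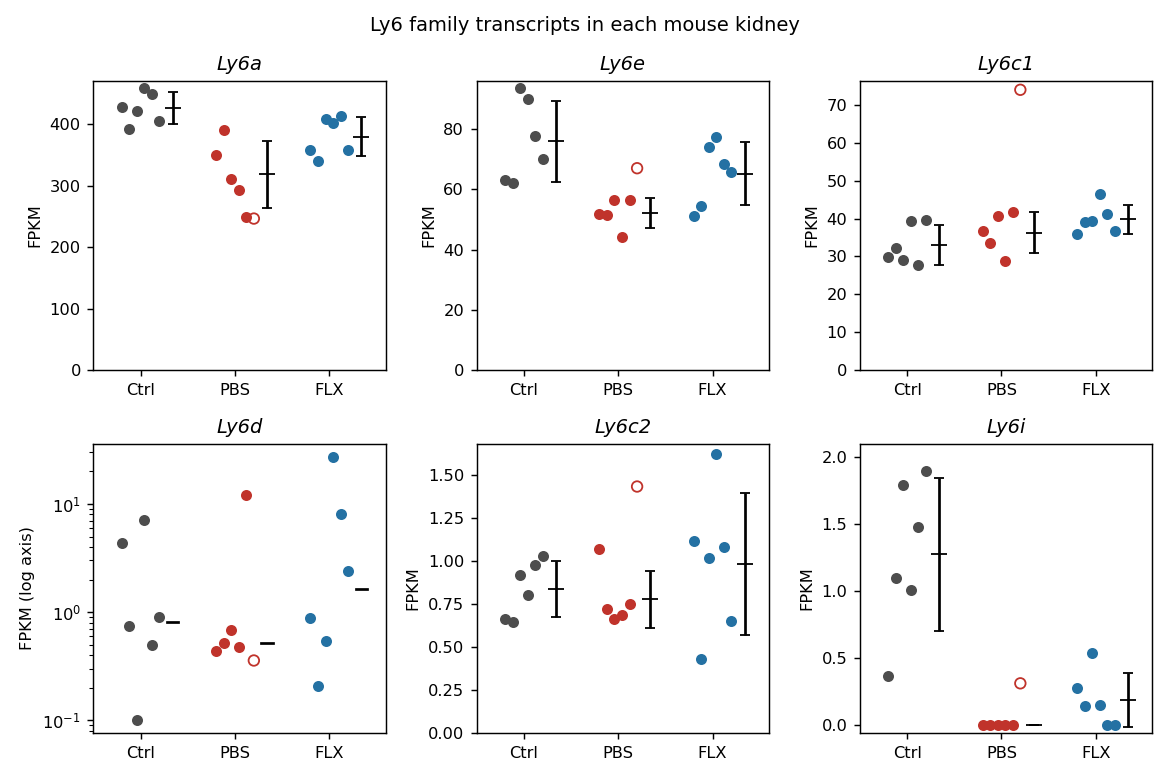
FPKM of each of the 6 genes (linear vertical axes that include 0, except that of Ly6d, which is a log axis) in every mouse of the Ctrl, PBS and FLX groups. Points are mice, the open point is PBS replicate 6, and the bars beside them are the mean and SD without that mouse (for Ly6d the median). All 5 other PBS mice lie below every Ctrl mouse for Ly6a, Ly6e and Ly6i, while Ly6d is high in single mice of each group.

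Ly6a, the most abundant member, was at 392, 426 and 460 FPKM in the lowest, median and highest Ctrl mouse. The 5 PBS mice were at 350, 391, 312, 292 and 249 FPKM, and the left-out PBS mouse was at 247 FPKM. The groups did not overlap, although the highest PBS mouse (390.9 FPKM) came close to the lowest Ctrl mouse (392.5 FPKM). Ctrl averaged 426 ± 25.7 FPKM (SD, n = 6) and PBS 319 ± 54.4 FPKM (SD, n = 5). This gave a log2 fold change of -0.41 (standard error, SE, of 0.10, edgeR adjusted p = 0.0292), or 24.8% lower. With all 18 mice it was -0.48 (SE 0.11, adjusted p = 0.0201). The call of Ly6a rested on single mice: the adjusted p was up to 0.0750 when Ctrl replicate 1, 4 or 5 or PBS replicate 3, 4 or 5 was left out, while the log2 fold change stayed between -0.50 and -0.32 over the 17 such fits. The call was also lost with a replicate block (adjusted p = 0.0801), with only Ctrl and PBS in the fit (0.0835) and with FLX replicates 1 and 2 only (0.0660), at log2 fold changes of -0.44, -0.40 and -0.41.

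Ly6e, whose protein is known to affect the entry of several viruses into cells, was at 62.0, 73.9 and 93.5 FPKM in the lowest, median and highest Ctrl mouse. The PBS mice were at 52.0, 51.6, 56.6, 44.1 and 56.4 FPKM, all below every Ctrl mouse, while the left-out mouse, at 67.0 FPKM, lay within the Ctrl range. Mean levels were 76.1 ± 13.4 FPKM (SD, n = 6) for Ctrl and 52.2 ± 5.10 FPKM (SD, n = 5) for PBS. The log2 fold change was -0.54 (SE 0.11, edgeR adjusted p = 0.0116), or 31.1% lower, and -0.48 (SE 0.11, adjusted p = 0.0213) over all 18 mice. This call held when any of the 17 mice was left out, with adjusted p values from 0.0101 to 0.0380.

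Ly6i, a gene best known from macrophages, had counts of 39, 109, 188, 103, 153 and 189 in the 6 Ctrl mice, or 0.37, 1.10, 1.79, 1.01, 1.48 and 1.89 FPKM. It had 0 counts in 5 of 6 PBS mice and 31 counts (0.31 FPKM) in the left-out mouse. Even the lowest Ctrl mouse was above the highest PBS mouse. Ctrl mice averaged 1.75 ± 0.761 CPM, counts scaled to the library total (SD, n = 6), at least 42.7-fold higher than the level that 3 counts per library would give in the 5 PBS mice. The adjusted p was 0.00178 from edgeR with 17 mice, and with all 18 mice the log2 fold change was -4.60 (SE 1.19, adjusted p = 0.0332). This floor covers counting error only. The call held in each of the 17 fits with 1 mouse left out (adjusted p from 0.000641 to 0.00549). Ly6i passed the filter on low counts through the Ctrl mice, the group where it was high. Its call and the shares of genes tested are therefore a description and no independent support.

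Ly6c1 overlapped between the groups. Ctrl mice had 27.8, 31.0 and 39.8 FPKM as the lowest, median and highest value, and the 5 PBS mice had 36.7, 33.6, 40.8, 28.7 and 41.8 FPKM. The log2 fold change was 0.14 (SE 0.10, edgeR adjusted p = 0.520), and with PBS replicate 6, at 74.0 FPKM, it was 0.35 (SE 0.16, adjusted p = 0.222). Ly6c2 stayed near 1 FPKM, with 0.643 to 1.03 FPKM in Ctrl and 0.664 to 1.07 FPKM in the 5 PBS mice. The Ly6c2 difference was -0.10 on the log2 scale (SE 0.25, edgeR adjusted p = 0.883), and 0.07 (adjusted p = 0.915) over all 18 mice, where the left-out mouse had 1.43 FPKM.

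Ly6d varied more between mice of 1 group than between groups. Ctrl mice were at 4.32, 0.74, 0.10, 7.04, 0.50 and 0.89 FPKM, the 5 PBS mice at 0.43, 0.52, 0.68, 0.47 and 12.1 FPKM, and the left-out mouse at 0.36 FPKM. A single PBS mouse, replicate 5, was above every Ctrl mouse, and the other 4 were within the Ctrl range. The log2 fold change was 0.29 with a standard error of 1.17 (adjusted p = 0.932 from edgeR), and it became -2.07 when PBS replicate 5 was left out. Over all 18 mice it was 0.07 (SE 1.14, adjusted p = 0.983).

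The second comparison, FLX versus PBS, asks what fluoxetine changed in defeated mice. Of the 6 members only Ly6i passed, higher in FLX, beside 0.306% of genes tested that were higher at an adjusted p under 0.05. It also passed the threshold of the study, which 0.983% of genes passed in this direction. Ly6i was tested here because the Ctrl mice, which are not compared, carried it past the filter on low counts: with only PBS and FLX in the fit it did not pass that filter, so the share of genes called is no measure for it. Over all 18 mice edgeR called 0 of 6 members at an adjusted p under 0.05, against 0.557% of genes, and 0 at an unadjusted p under 0.05. Ly6i had counts of 30, 15, 36, 11, 0 and 0 in FLX replicates 1 to 6, or 0.28, 0.14, 0.54, 0.15, 0 and 0 FPKM. Thus 4 of 6 FLX mice had counts where the 5 PBS mice had none, and FLX replicates 5 and 6 were at 0 like the PBS mice. Those 2 mice were of the lower depth, but so were FLX replicates 3 and 4, with counts of 36 and 11. The FLX mean, 0.251 ± 0.276 CPM (SD, n = 6), was at least 6.12-fold higher than the level of 3 counts per library in PBS. The adjusted p was 0.0465 from edgeR, close to the threshold, and the call was lost in 14 of the 17 fits that left out 1 mouse (up to 0.110), all but those without Ctrl replicate 3, FLX replicate 5 or FLX replicate 6. With the left-out PBS mouse included, the log2 fold change was 1.81 (SE 1.13, adjusted p = 0.573).

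**Figure D2:**
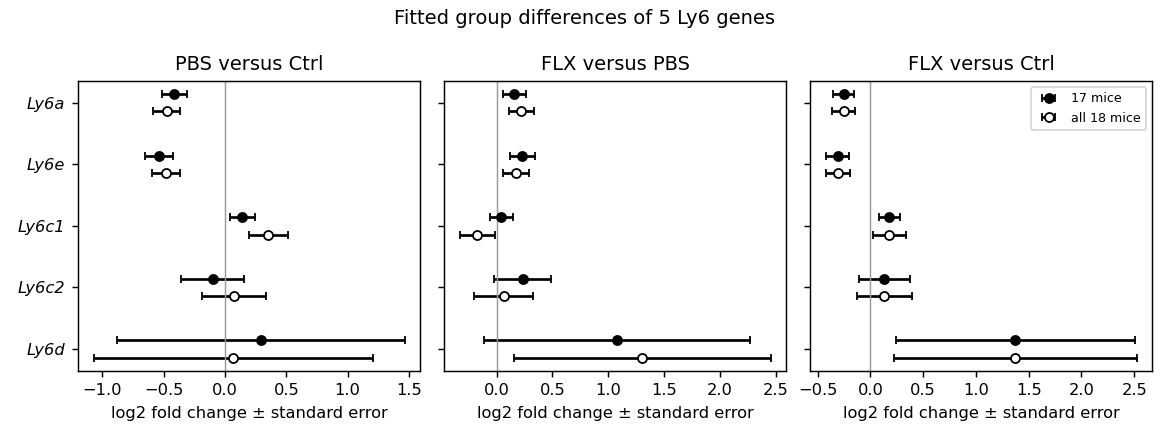
Log2 fold changes with standard errors (horizontal axes) of Ly6a, Ly6e, Ly6c1, Ly6c2 and Ly6d in the 3 comparisons, over 17 mice (filled) and all 18 mice (open). Ly6i is not drawn because its fitted value against a group at 0 counts depends on the prior count. Ly6a and Ly6e lie below 0 in PBS versus Ctrl, at -0.41 and -0.54 over 17 mice, while the bars of Ly6d are the widest in each panel.

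Ly6e in FLX mice was at 51.0, 54.4, 73.9, 77.2, 68.4 and 65.9 FPKM, with a mean of 65.2 ± 10.5 FPKM (SD, n = 6). FLX replicates 1 and 2, sequenced as deeply as the other groups, lay within the PBS range of 44.1 to 56.6 FPKM, and FLX replicates 3 to 6, the 4 libraries with the lower totals, lay above it. The log2 fold change against PBS was 0.23 (SE 0.11, edgeR adjusted p = 0.468), and -0.03 (SE 0.14) with FLX replicates 1 and 2 only. Whether depth, or what the libraries of lower depth share, plays a part in this was not tested. Over all 18 mice it was 0.17 (SE 0.11, adjusted p = 0.596).

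Ly6a in FLX mice was at 358, 341, 409, 403, 413 and 358 FPKM. FLX replicates 3 to 5 were above every PBS mouse, and the rest lay within the PBS range. The log2 fold change was 0.16 (SE 0.10, edgeR adjusted p = 0.627), 0.22 (SE 0.11, adjusted p = 0.436) over all 18 mice, and 0.08 (SE 0.15) with FLX replicates 1 and 2 only.

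Ly6c1 was at 36.0, 39.2 and 46.4 FPKM in the lowest, median and highest FLX mouse, with a log2 fold change against PBS of 0.04 (SE 0.10, edgeR adjusted p = 0.938). With the left-out PBS mouse its sign turned, to -0.17 (SE 0.16, adjusted p = 0.734). Ly6c2 ranged from 0.430 to 1.62 FPKM in FLX, with a log2 fold change of 0.23 (SE 0.26, adjusted p = 0.820), and of 0.06 (adjusted p = 0.960) with all 18 mice.

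Ly6d was at 0.87, 0.21, 0.54, 27.3, 8.05 and 2.39 FPKM in FLX, where replicate 4 alone set the highest value of all 18 mice. Its log2 fold change against PBS was 1.08 (SE 1.19, edgeR adjusted p = 0.823), and 1.31 (SE 1.15, adjusted p = 0.722) over all 18 mice. Without FLX replicate 4 it was -0.31.

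The third comparison, FLX versus Ctrl, sets treated defeated mice beside undefeated ones and shares its groups with the other two. At an adjusted p under 0.05 edgeR called 0 of 6 members, against 3.67% of genes in either direction, while 3 members, Ly6i, Ly6e and Ly6a, had an unadjusted p under 0.05 and were lower in FLX. DESeq2 called 1 member, Ly6i, and so did limma on log2(FPKM + 0.1). At the study's threshold Ly6i was lower in FLX, against 1.03% of genes. Ctrl also carried it past the filter here, so this share is no measure for Ly6i. Its log2 fold change was -2.80 (SE 0.79, edgeR adjusted p = 0.0661), and 5 of 6 FLX mice were below every Ctrl mouse. FLX replicate 3, at 0.54 FPKM, was above Ctrl replicate 1, at 0.37 FPKM. With all 18 mice in the fit the value was also -2.80 (adjusted p = 0.181), and 0 members were called by edgeR, against 1.77% of genes, with 3 at an unadjusted p under 0.05.

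For Ly6e the log2 fold change between FLX and Ctrl was -0.31 (SE 0.11, edgeR adjusted p = 0.110), and -0.56 (SE 0.14, adjusted p = 0.195) with FLX replicates 1 and 2 only. Ly6a gave -0.25 (SE 0.10, edgeR adjusted p = 0.148), with means of 380 ± 31.4 FPKM (SD, n = 6) in FLX and 426 ± 25.7 (SD, n = 6) in Ctrl. Both means in FLX lay between those of PBS and Ctrl, but neither difference, from PBS or from Ctrl, passed. Ly6c1 differed by 0.18 (SE 0.10, adjusted p = 0.306), Ly6c2 by 0.13 (SE 0.24, adjusted p = 0.810) and Ly6d by 1.37 (SE 1.13, adjusted p = 0.532), all on the log2 scale. The left-out mouse is in neither of these groups, and with it in the fit Ly6e was at -0.31 (adjusted p = 0.161), Ly6a at -0.25 (adjusted p = 0.237), Ly6c1 at 0.18, Ly6c2 at 0.13 and Ly6d at 1.37, with SEs of 0.16, 0.26 and 1.15 for the last 3.

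The 3 genes that were lower in PBS than in Ctrl lie next to each other. From the middle of Ly6i, the middle of Ly6e is 24.0 kb to one side and that of Ly6a 15.0 kb to the other, with 0 tested genes between them. Along the 883 kb of chromosome 15 from Psca to Gpihbp1, which hold 41 listed genes, 19 genes were tested in all. In PBS versus Ctrl 10 of these were above 0 and 9 below, and edgeR called 0 higher and 3 lower. In FLX versus PBS 1 of the 19 was called higher, Ly6i, and in FLX versus Ctrl 0 were called, as given above for the members.

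**Figure D3:**
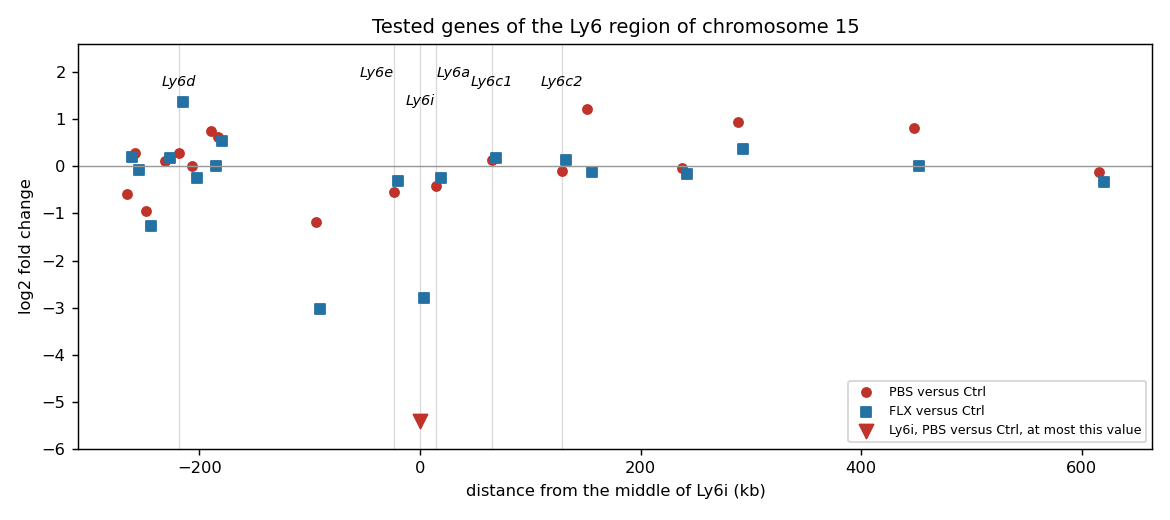
Log2 fold changes (vertical axis) of the 19 tested genes from Psca to Gpihbp1, by distance in kb from the middle of Ly6i (horizontal axis), in PBS versus Ctrl (circles) and FLX versus Ctrl (squares, shifted by 4 kb). The triangle is the bound for Ly6i against 3 counts per PBS library, and grey lines mark the 6 members. The members with calls in PBS versus Ctrl, Ly6e, Ly6i and Ly6a, are neighbours, and genes on either side of them lie on both sides of 0.

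Other genes of the Ly6 and urokinase receptor (uPAR) family served as a list of related genes. The list is not complete: Ly6g6g, tested in the chromosome 15 region above, is not on it. Its log2 fold change in PBS versus Ctrl was 0.02 (edgeR adjusted p = 0.977). Of 42 listed names, 35 were in the table and 21 passed the filter on low counts. With edgeR 0 of the 21 were called in each of the 3 comparisons, in which 3.81%, 0.726% and 3.67% of all genes were called, while 3, 2 and 6 had an unadjusted p under 0.05 in PBS versus Ctrl, FLX versus PBS and FLX versus Ctrl. DESeq2 called 2, 1 and 1 of them, and limma on log2(FPKM + 0.1) called 0 in each. In PBS versus Ctrl 12 of the 21 were above 0 and 9 below, with a median log2 fold change of 0.08. Over all 18 mice Plaur, the urokinase receptor gene, was called higher in PBS than in Ctrl (log2 fold change 1.17, adjusted p = 0.0335 from edgeR), and over 17 mice it was at 0.83 (adjusted p = 0.0757). Its level was 4.40 FPKM in the left-out mouse and 1.04 to 1.95 FPKM in the other PBS mice.

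Among these relatives the highest mean levels were those of Ly6g2 at 28.8 FPKM, Cd59a at 22.1 FPKM, 9030619P08Rik at 14.2 FPKM, Psca at 11.4 FPKM and Gpihbp1 at 6.01 FPKM. Cd59a encodes an inhibitor of the complement membrane attack complex, and it ranged only from 16.3 to 28.6 FPKM over all mice. Gpihbp1, which carries lipoprotein lipase across capillary endothelium, had 14.9 FPKM in PBS replicate 6 and at most 9.45 FPKM in the other mice. The transcript of the pseudogene 9030619P08Rik ranged from 5.36 to 15.3 FPKM in Ctrl, from 13.9 to 26.1 FPKM in the 5 PBS mice and from 9.07 to 18.5 FPKM in FLX. Its log2 fold change in PBS versus Ctrl was 0.82 (adjusted p = 0.0802 from edgeR), and in FLX versus PBS it was -0.82 (adjusted p = 0.164).

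Several markers moved with single members from mouse to mouse. The 10 urothelial genes, which include the uroplakins Upk1a and Upk3a, summed to 178 FPKM in FLX replicate 4, 55.8 in PBS replicate 5, 37.8 in Ctrl replicate 4, 27.3 in FLX replicate 5 and 17.7 in Ctrl replicate 1. These 5 mice were also the 5 with the highest Ly6d, and FLX replicate 6, with 13.6 FPKM, was the next in both. In the other 12 mice the sum was between 1.17 and 7.53 FPKM and Ly6d was between 0.10 and 0.89 FPKM. Psca, a family member of the urinary lining, was at 68.1, 35.6 and 51.6 FPKM in FLX replicate 4, PBS replicate 5 and Ctrl replicate 4 and had a median of 1.78 FPKM over all mice. In edgeR 0 of the 10 urothelial genes were called in any of the 3 comparisons, and 0 had an unadjusted p under 0.05. The part of urothelium in the Ly6d values was not tested.

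**Figure D4:**
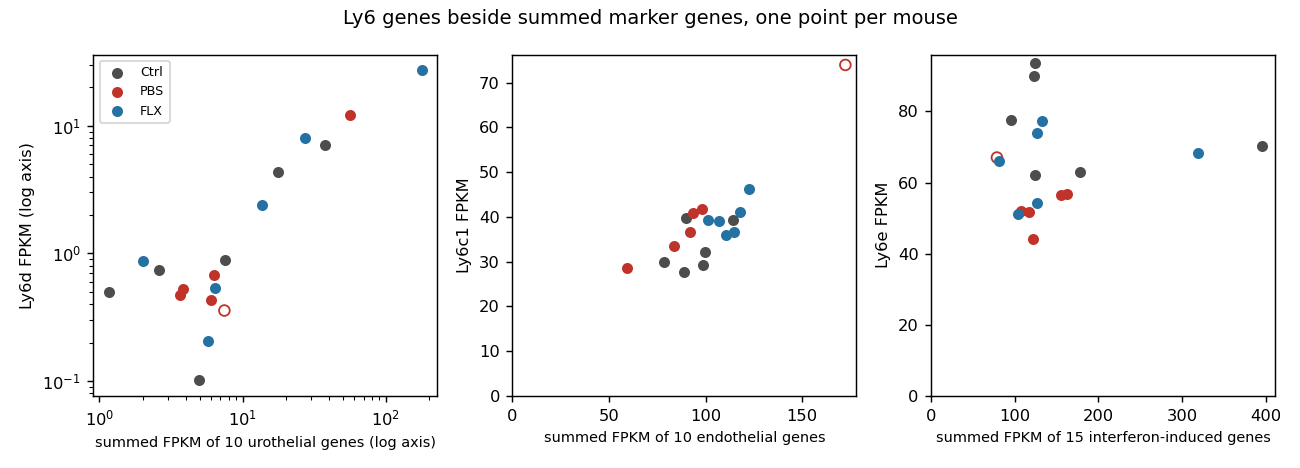
FPKM of Ly6d, Ly6c1 and Ly6e (vertical axes) beside the summed FPKM of 10 urothelial, 10 endothelial and 15 interferon-induced genes (horizontal axes), with 1 point per mouse and PBS replicate 6 open; the first panel has log axes. Ly6d is highest in the mice with the highest urothelial sums, PBS replicate 6 is highest in both Ly6c1 and the endothelial sum, and the mice with the 2 highest interferon-induced sums have 70.2 and 68.4 FPKM of Ly6e. Ifi27l2a weighs most in the interferon-induced sums.

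The 10 endothelial genes, led by Plvap and Egfl7, summed to 172 FPKM in PBS replicate 6, the mouse with the highest Ly6c1, and to 59.5 to 122 FPKM in the others. The lowest sum, in PBS replicate 4, came with a Ly6c1 level of 28.7 FPKM, the second lowest of all mice. In FLX versus Ctrl 3 of 10 endothelial genes were called higher, the receptor genes Tek, Flt1 and Tie1, and over all 18 mice 1 was, Tek. In PBS versus Ctrl and FLX versus PBS edgeR called 0 of the 10, with 1 and 6 at an unadjusted p under 0.05. The part of endothelial cells in the Ly6c1 values was not tested.

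Interferon-induced genes, led by Ifi27l2a and Bst2, were listed because Ly6a and Ly6e respond to interferons. In PBS versus Ctrl 14 of the 15 were below 0, with a median log2 fold change of -0.44, but edgeR called 0 of them, with 3 at an unadjusted p under 0.05. That median rested on Ctrl replicate 6: without this mouse it was -0.04, with 12 of 15 below 0 and 1 at an unadjusted p under 0.05. Over all 18 mice 15 of 15 were below 0, with a median of -0.52, 0 called and 5 at an unadjusted p under 0.05. EdgeR also called 0 in FLX versus PBS and in FLX versus Ctrl, with 1 and 4 at an unadjusted p under 0.05. In FLX versus Ctrl the median was -0.47, and -0.09 without Ctrl replicate 6. The summed FPKM was 95.3 to 396 in Ctrl, 108 to 163 in the 5 PBS mice, 78.5 in the left-out mouse and 81.2 to 320 in FLX, so the groups overlapped, and the medians of Ctrl and the 5 PBS mice were 123.6 and 121 FPKM. Ifi27l2a weighed most in these sums, with a mean of 72.9 FPKM over all mice against 21.8 FPKM for Bst2, the next gene. Its highest value was 178 FPKM in Ctrl and 224 FPKM in FLX. The highest values of Isg15 and Irf7 were 29.5 and 34.4 FPKM in Ctrl but 7.77 and 6.20 FPKM in FLX. The highest sum and the highest Ly6e were in different mice: Ctrl replicate 6, with the highest sum, had 70.2 FPKM of Ly6e, and Ctrl replicate 3, with the highest Ly6e at 93.5 FPKM, had a sum of 124 FPKM. The part of interferon signalling in the Ly6a and Ly6e values was not tested.

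Monocyte and macrophage genes, led by Lyz2 and C1qb, were listed because these cells express Ly6c2 and Ly6i. EdgeR called 0 of the 10 in each comparison, with 1, 5 and 1 at an unadjusted p under 0.05 in PBS versus Ctrl, FLX versus PBS and FLX versus Ctrl. In PBS versus Ctrl 6 were above 0 and 4 below, with a median log2 fold change of 0.16. Their summed FPKM, most of it from Lyz2 and the C1q genes, was 73.8 to 98.7 in Ctrl, 81.2 to 113 in the 5 PBS mice, 125 in the left-out mouse and 58.5 to 173 in FLX. The chemokine receptor genes Ccr2 and Cx3cr1, picked out after their values were seen, were among the 4 genes below 0 in PBS versus Ctrl. Their log2 fold changes were -0.82 (edgeR adjusted p = 0.0844) and -0.63 (adjusted p = 0.327). Their median levels were 0.598 and 0.707 FPKM in Ctrl and 0.324 and 0.461 FPKM in the 5 PBS mice. The more abundant C1qb and C1qa went the other way, with medians of 18.2 and 16.3 FPKM in Ctrl and 20.7 and 19.1 FPKM in the 5 PBS mice. So did the medians of Plac8, Adgre1 and Chil3, at 8.13, 0.820 and 0.0320 FPKM in Ctrl and 8.77, 1.08 and 0.295 FPKM in the 5 PBS mice. The part of monocytes and macrophages in the Ly6i values was not tested.

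Of the neutrophil genes 7 of 10 were tested, and 3 of these, S100a8, S100a9 and Ngp, were called higher in PBS than in Ctrl, whereas Ly6i, Ly6e and Ly6a were lower. Over all 18 mice 4 of the 7 were called higher. S100a8 was called lower in FLX than in PBS. Ly6g, the family gene that defines neutrophils, had a mean of 0.0206 FPKM and was not tested. Of 8 B and plasma cell genes, led by Igkc and Ighm, 2 were above 0 and 6 below in PBS versus Ctrl, with a median log2 fold change of -0.31. The plasma cell gene Mzb1 was called higher in PBS (1.60, edgeR adjusted p = 0.0153), a call that was lost over all 18 mice (adjusted p = 0.0680). The B cell receptor genes Cd79a and Cd79b were at -1.19 (edgeR adjusted p = 0.267) and -0.77 (adjusted p = 0.189).

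Perirenal fat genes, led by Cfd and Fabp4, had higher fitted levels in both groups of defeated mice than in Ctrl, without passing the test. All 8 had fold changes above 0 in PBS versus Ctrl and in FLX versus Ctrl, with median log2 fold changes of 1.94 and 1.99. These medians fell to 0.71 without PBS replicate 5 and to 0.53 without FLX replicate 5. The summed FPKM was 14.4 to 259 in Ctrl, 42.9 to 1554 in the 5 PBS mice, 47.5 in the left-out mouse and 46.0 to 1492 in FLX, so the groups overlapped. PBS replicate 5, with the highest sum, had the lowest Ly6a of the 5 PBS mice (249 FPKM), and without it the log2 fold change of Ly6a in PBS versus Ctrl was -0.32 (edgeR adjusted p = 0.0542). FLX replicate 5, with the next highest sum, had the highest Ly6a of the FLX mice (413 FPKM). The part of fat in the Ly6a values was not tested.

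For the 8 T cell genes, led by Trac and Lck, the 8 fat genes and 10 tubule genes edgeR made 0 calls in the 3 comparisons. At an unadjusted p under 0.05 they had 0, 3 and 0 genes in PBS versus Ctrl, 0, 0 and 2 in FLX versus PBS and 0, 2 and 0 in FLX versus Ctrl.

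Genes whose pattern was most like that of each member were found over the 17 mice after each group's mean was subtracted, as a description only, since all values of a mouse share its library. Ly6d was most like Aldh3a1, an aldehyde dehydrogenase of surface epithelia (Pearson's r = 0.944, Spearman's rho = 0.797), S100a6 (r = 0.942, rho = 0.853) and the annexin gene Anxa1 (r = 0.936, rho = 0.873). Ly6c1 was most like the tetraspanin gene Tspan9 (r = 0.875, rho = 0.846), Gnb5, a G protein subunit (r = 0.851, rho = 0.843), and the glucocorticoid-induced gene Tsc22d3 (r = 0.846, rho = 0.824). For Ly6e they were Map3k3, a kinase (r = 0.835, rho = 0.843), Lpcat4, a lysophospholipid acyltransferase (r = 0.833, rho = 0.848), and Ifng, the gene of interferon gamma (r = 0.821, rho = 0.892), which was itself at a mean of only 0.0716 FPKM. For Ly6a they were Syn3 (r = 0.786, rho = 0.777), Tpd52-ps (r = 0.776, rho = 0.625) and Trir (r = 0.757, rho = 0.721). Ly6c2 and Ly6i, with a mean under 1 FPKM, were left out of this search. Among the members themselves r went from -0.470 for Ly6d and Ly6i to 0.554 for Ly6c1 and Ly6d, and for the neighbours Ly6a and Ly6e it was 0.325.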

How the data were processed

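Right kidneys of 18 mice (6 per group) were sequenced from poly(A) RNA with read pairs. The authors deposited, per gene and mouse, an FPKM value and a count. Their methods name fastp, HISAT-3N, GRCm38 and StringTie, and the submitters' processing notes name cutadapt 1.9, HISAT2 2.0.4 and StringTie 1.3.4d, so the 2 sources differ. How counts were made from the alignments is not stated there, so the deposited whole numbers were treated here like expected counts (estimated counts), which the authors may or may not have made by estimation.

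Counts were tested with edgeR 4.0.16 (R 4.3.3): TMM scaling, filterByExpr by group (20251 genes kept over 17 mice), a two-sided quasi-likelihood test over the 3 groups, and Benjamini-Hochberg adjustment over all genes tested. The test gives no standard error, so each SE was calculated back, as the absolute log2 fold change divided by the square root of the F statistic. DESeq2 1.42.0, limma 3.58.1 on log2(FPKM + 0.1, 0.01 or 1), upper-quartile scaling, no filter, all 18 mice, only the 2 groups compared, FLX replicates 1 and 2 only, a replicate block and leaving out each mouse were alternatives. The scripts were tested on simulated data.

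The 6 genes, the marker lists and the tests were chosen with earlier results of these data known. Named were the 6 members, relatives that were called or among the 5 of highest mean FPKM, the 3 genes most like each member with a mean of at least 1 FPKM (Pearson's r of log2(FPKM + 0.1)), and the 2 most abundant genes of each marker list. Leaving out each mouse for the medians of the interferon and fat lists was chosen after seeing the data. Marker genes that were called, Ccr2, Cx3cr1, Cd79a, Cd79b, Plaur and genes called by an alternative were named after their values were seen. The mice of a group are separate samples by their labels. Coding and transcript sequences came from GENCODE M21, and promoters from RefSeq.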

Additional observations from a re-analysis of the deposited data

Results flagged for a closer look

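In 4 of the 18 sets of 6 mice (6 genes in 3 groups) the highest mouse stood far from the other 5 by Dixon's test. The rate of 1 in 20 sets behind its limit holds for normally distributed values only, so the 4 sets are not compared with chance. For Ly6i in PBS the test says nothing, since any value above 0 stands apart from 5 mice tied at 0. Ly6c1 was at 74.0 FPKM in PBS replicate 6, against 41.8 FPKM in the next PBS mouse. Ly6i was at 0.310 FPKM in the same mouse, against 0 in the other 5. Ly6d was at 12.1 FPKM in PBS replicate 5, against 0.681 FPKM in the next PBS mouse, and at 27.3 FPKM in FLX replicate 4, against 8.05 FPKM in the next FLX mouse.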

How the results depend on the processing

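Ly6e and Ly6i kept their calls in PBS versus Ctrl under all 10 alternatives, with adjusted p from 0.000297 to 0.0276 and from 3.24e-12 to 0.0332. Ly6a lost its call with the replicate block (0.0801), with only the 2 groups compared (0.0835) and with FLX replicates 1 and 2 only (0.0660). Leaving out 1 mouse, 2 to 3 members were called in PBS versus Ctrl, 0 to 1 in FLX versus PBS and 0 to 1 in FLX versus Ctrl, and 0 to 1, 0 to 0 and 0 to 1 other family genes. In FLX versus PBS 0 members were called with all 18 mice, no filter, limma at each of its 3 pseudocounts, the replicate block, only the 2 groups compared (where Ly6i did not pass the filter) or FLX replicates 1 and 2 only. The adjusted p of Ly6i there ranged from 1.74e-05 to 0.573 over 9 alternatives. In FLX versus Ctrl 1 member, Ly6i, was called with DESeq2 and with limma at each pseudocount (adjusted p from 0.00389 to 0.0161), and without Ctrl replicate 3 or FLX replicate 3 (lowest value 0.0341). The other family genes called were 1 in PBS versus Ctrl with all 18 mice or the replicate block (Plaur), 2 with DESeq2 (Plaur and 9030619P08Rik), and with DESeq2 1 in FLX versus PBS (9030619P08Rik) and 1 in FLX versus Ctrl (Lypd2).

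Signs turned only for values that did not pass. With all 18 mice Ly6c2 was at 0.072 in PBS versus Ctrl and Ly6c1 at -0.17 in FLX versus PBS. In PBS versus Ctrl Ly6d was at -0.11, -0.050 and -0.081 with limma at pseudocounts of 0.1, 0.01 and 1, and from -2.07 to 1.06 leaving out 1 mouse. With FLX replicates 1 and 2 only, Ly6c2, Ly6d and Ly6e were at -0.055, -2.36 and -0.027 in FLX versus PBS, and Ly6c2 and Ly6d at -0.15 and -2.07 in FLX versus Ctrl. Leaving out 1 mouse, Ly6c1 went from -0.017 to 0.083 and Ly6d from -0.31 to 3.44 in FLX versus PBS, and Ly6c2 from -0.031 to 0.29 and Ly6d from -0.014 to 2.14 in FLX versus Ctrl. The causes were not tested.

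Replicate numbers are shared by the groups but did not pair the mice: deviations of same-numbered mice correlated from -0.205 to 0.227 over 16 pairs, 2 of them over 0.1, and 4 of 17 mice correlated best with their own number. With the replicate block 2 members were called in PBS versus Ctrl and 0 in FLX versus PBS. Ly6i had few counts, 0 to 189 per mouse, so its counting error is large. The 5 PBS mice at 0 had totals of 72373418 to 78711121 counts. FLX replicate 3, with the lowest total of all mice, had 36 counts of Ly6i.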
